A study of Mus musculus with 6 samples.

Results

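The 78 genes described here carry symbols of mitochondrial ribosomal proteins, and all but Mrps36 are taken here as genes of that ribosome. They were chosen by symbol, as every gene of the expression table named Mrpl or Mrps followed by a number and at most 1 letter. All 78 passed the expression filter of at least 1 TPM in at least 3 libraries (TPM, the estimated abundance of a transcript per unit of its length, set to a total of 1000000 in each library). They stand among 33641 gene symbols in the table and 11099 genes that passed the filter. By symbol, 49 belong to the large subunit (Mrpl) and 29 to the small subunit (Mrps).

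The muscle is the quadriceps of male littermates of heterozygous parents, 4 months of age and killed about ZT4. The 3 libraries labelled Homo carry the rs6190 allele on both chromosomes (rs6190 allele +/+, here homozygous) and 3 labelled WT carry the reference allele on both (ref allele +/+). In people, rs6190 is a coding variant of the glucocorticoid receptor gene NR3C1, and the mice are a genocopy of it, so the allele is inherited and present in every cell type of the muscle. The labels name no treatment, and they do not say whether each library came from another mouse, so p-values measure the spread between these libraries.

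Mitochondria make a small set of respiratory chain proteins on ribosomes of their own. The rRNAs of these ribosomes are transcribed from mitochondrial DNA, whereas every ribosomal protein is encoded in the nucleus, made in the cytosol and imported. Some of the proteins have bacterial counterparts and others were added during the evolution of mitochondria. Skeletal muscle relies on this machinery because each respiratory complex that contains mitochondrially encoded subunits needs proteins from both genomes, and inherited defects of single mitochondrial ribosomal proteins cause disease of heart, muscle, brain or liver.

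The skeletal muscle markers Acta1, Ckm, Myh4, Mylpf, Tnnt3, Des, Pvalb and Mb together held 88317 to 177101 TPM per library. WT replicate 3 stood apart from the other libraries. Fast fibre markers held 23.2% of its TPM against 9.67% to 13.1% elsewhere, slow fibre markers 0.0245% against 0.112% to 0.971%, and mitochondrially encoded mRNAs 14.3% against 20.9% to 33.9%. Homozygous replicate 2 stood apart in slow fibre markers, with 9714 TPM against 1902 and 2241 TPM in the other homozygous and 245 to 1738 TPM in the WT libraries. All 11 slow fibre markers had higher means in the homozygous group, with a median log2 difference of 2.25, or 1.44 without homozygous replicate 2 and 1.25 without WT replicate 3. The ratio of their summed TPM, homozygous to WT, was 4.46, and 2.0003 without homozygous replicate 2. Of 12 fast fibre markers 10 had lower means in the homozygous group, with a median log2 difference of -0.39, which was -0.05 without WT replicate 3. The 4 of 6 Schwann cell markers that were tested had higher homozygous means, as had 85.8% of all tested genes. Their groups did not overlap for any of the 4 (100%, against 34.7% of all tested genes). Homozygous means were also higher for 6 of 6 endothelial, 4 of 5 immune, 4 of 6 fibroblast, 3 of 5 adipocyte and 2 of 5 blood markers tested. The slow fibre level was examined as a covariate, with its values beside the median difference, and the part of other cell types was not tested. In whole muscle fewer cells of a type and less RNA per cell cannot be told apart. Nr3c1 itself was at 20.01, 19.7 and 19.5 TPM in homozygous replicates 1 to 3 and at 11.5, 14.8 and 8.07 TPM in WT replicates 1 to 3. Its TPM does not show which allele a library carries.

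None of the 78 genes differed between the genotypes at an adjusted p under 0.05 in limma, and their differences were small. The test was fitted to log2(TPM + 1) of all 11099 genes, with Benjamini-Hochberg adjustment over all of them, and it called 0 of them (0%). Mrps23 came closest, with an adjusted p of 0.168. Without adjustment, a p under 0.05 was reached by 4 of the 78 with higher values in homozygous muscle (Mrps23, Mrpl35, Mrpl3 and Mrps22) and by 0 with lower values, against 23.7% of all tested genes higher and 0.55% lower. The share of the 78 past that unadjusted threshold lay below the background in the upward direction. The direction turned with the scaling of the libraries. After quantile normalization 0 of the 78 were higher and 7 lower at an unadjusted p under 0.05, against 4.54% and 4.34% of all genes. With median centring 0 were higher and 5 lower, against 3.65% and 4.61%, and with a length trend removed from each library 1 was higher and 4 lower, against 4.31% and 3.79%. With libraries weighted by how closely they follow their group (array weights), limma called 2 of the 78, Mrpl35 and Mrps23, beside 7.3% of all genes.

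The log2 fold changes, homozygous minus WT, ran from -0.34 for Mrps35 to 0.50 for Mrps23. Means were higher in homozygous muscle for 58 of the genes (74.4%) and lower for 20. Over all tested genes the homozygous mean was higher for 85.8%. The median log2 fold change of the 78 was 0.11 and that of all tested genes 0.26, a difference of -0.16. Only 9 of the 78, namely Mrps23, Mrpl35, Mrpl1, Mrps16, Mrps22, Mrpl3, Mrpl43, Mrps30 and Mrps34, lay above the median of all genes. That gap rested in part on WT replicate 3, without which it was -0.05, with 67 of the 78 genes higher in homozygous muscle. With the mean log2 level of the slow fibre markers as a covariate the gap turned to 0.02, with 75 of the 78 genes higher and 35 below the median of all genes, and limma called 0 of the 78. The summed TPM of these markers was higher in every homozygous than in every WT library. Genotype and slow fibre level therefore cannot be told apart in that fit. The gap also depends on which genes the 78 are set beside, since without the expression filter it was -0.008. The genes added there are low, and log2(TPM + 1) understates differences of low genes. With a pseudocount of 0.1 on the filtered genes the gap was -0.21.

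The sign itself depended on how the libraries were scaled. With log2 values centred on the median of each library, 5 of the 78 genes were higher in homozygous muscle and 73 lower, and after quantile normalization 13 were higher. Those scalings moved the median of all genes from 0.26 to -0.04 and to -0.007. Median centring shifts all genes of a library alike, so it cannot change the gap between the 78 and all genes. After quantile normalization that gap was -0.12.

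The homozygous libraries all lay above the WT libraries for 19 of the 78 genes (24.4%), against 34.7% of all tested genes. They all lay below for 0 of the 78, against 0.73%. That count was 6 without homozygous replicate 1 (7.69%, against 3.1% of all genes; Mrpl16, Mrpl36, Mrpl42, Mrps25, Mrps28 and Mrps35), 4 without WT replicate 2 (5.13%, against 2.06%; Mrpl23, Mrps21, Mrps25 and Mrps35), 1 without WT replicate 1 (Mrps6, against 2.16%) and 0 without any 1 of the other libraries. The 19 genes were Mrpl1, Mrpl2, Mrpl3, Mrpl9, Mrpl11, Mrpl17, Mrpl22, Mrpl24, Mrpl35, Mrpl39, Mrpl40, Mrpl43, Mrpl49, Mrpl55, Mrps18c, Mrps22, Mrps23, Mrps27 and Mrps30. Without WT replicate 3, the homozygous libraries lay above the remaining WT pair for 39 of the 78 genes (50%), against 42.1% of all tested genes. The 78 genes therefore fell on the low side of the background with that library and on the high side without it. Leaving out any of the other 5 libraries gave 21 to 28 genes with homozygous above, in each case a smaller share than that of all genes.

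**Figure D1:**
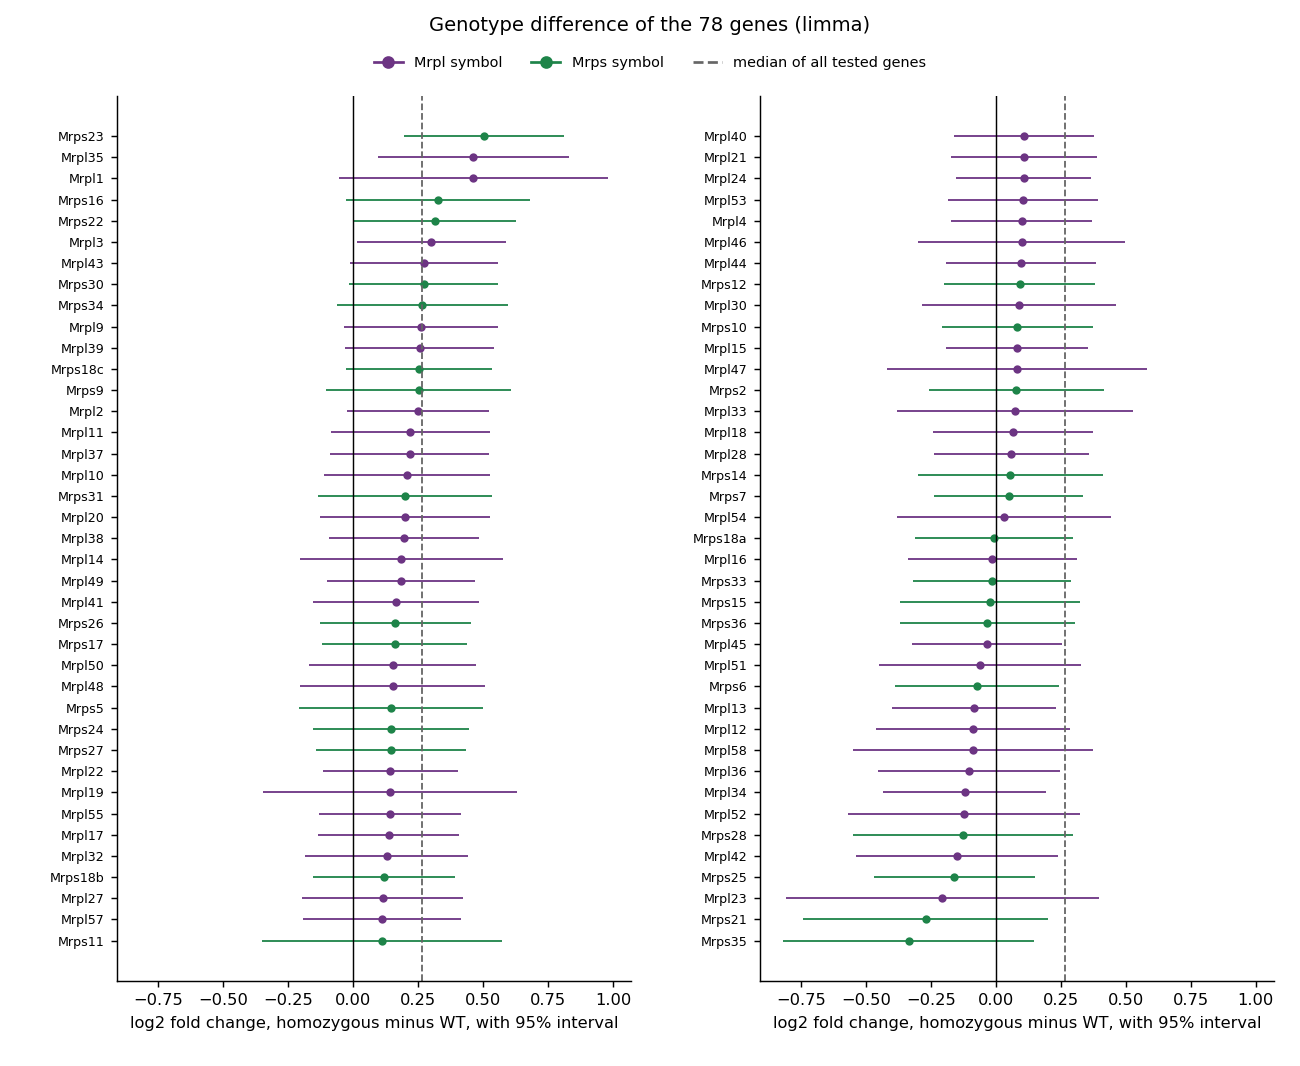
Log2 fold change of each of the 78 genes (point) with its 95% interval from limma (line), homozygous minus WT, sorted from highest to lowest. The solid line marks 0 and the dashed line the median of all tested genes, 0.26, which only 9 points exceed.

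The intervals of the fit bound differences of TPM as deposited, and they hold no uncertainty of the scaling. The median log2 fold change of the 78 was 0.11 in this fit, -0.19 with median centring and -0.12 after quantile normalization. The 95% interval of the log2 fold change lay within 1 of 0 for all 78 genes, against 80.5% of all tested genes, and within 0.5 of 0 for 45 of them (57.7%), against 16.4%. The outermost limits were -0.82 for Mrps35 and 0.98 for Mrpl1. The median SD between libraries of a group was 0.133 on the log2 scale for the 78 and 0.224 for all tested genes. The 78 are more abundant, with a median of 48.2 TPM against 7.61 TPM. No comparison at like abundance was made, here or for the coefficient of variation below.

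The levels of the 78 transcripts were moderate and spread over 54.1-fold, from a mean of 7.54 TPM for Mrpl19 to 408 TPM for Mrpl42. The median of the 78 means was 48.2 TPM, against 7.61 TPM over all tested genes. Means below 10 TPM were found for 2 genes, between 10 and 100 TPM for 65 and at 100 TPM or more for 11. The coefficient of variation over the 6 libraries had a median of 11.1%, against 22.2% for all tested genes, and ran from 5.11% for Mrpl24 to 28.7% for Mrpl23. Of the 77 neighbouring pairs in the order of mean TPM, 75 had ranges over the 6 libraries that overlapped; the steps from Mrps21 to Mrpl30 and from Mrpl39 to Mrps2 did not. The plot of all levels shows this.

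**Figure D2:**
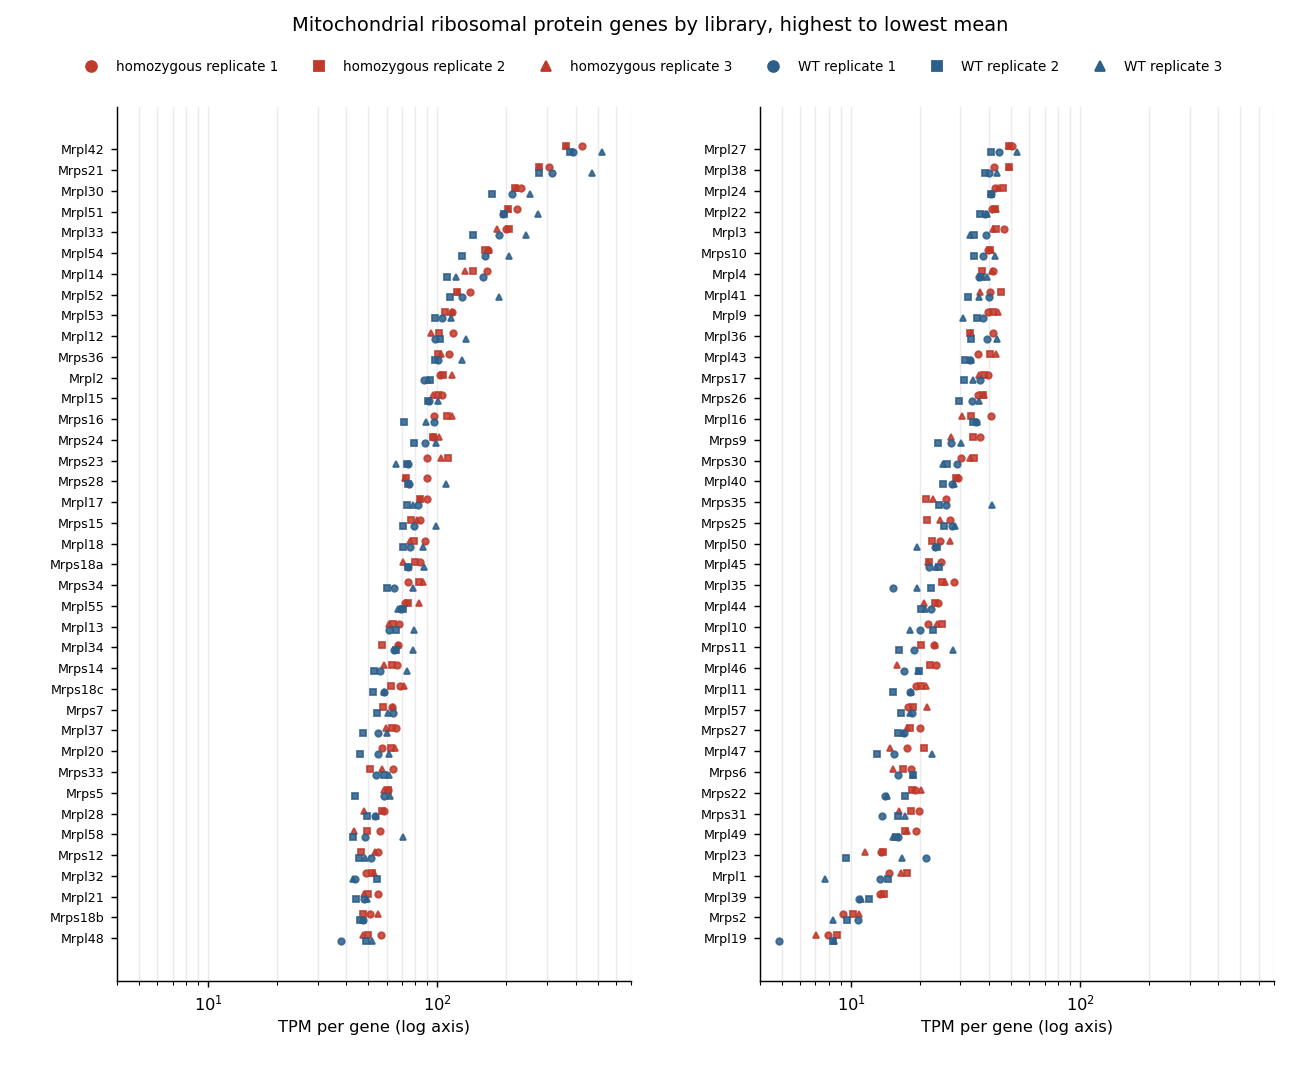
TPM of each of the 78 genes in each library on a log axis, from the highest mean (Mrpl42, top left) to the lowest (Mrpl19, bottom right). Red marks are homozygous libraries and blue marks WT libraries, and the blue triangles of WT replicate 3 lie farthest right for most of the highly abundant, short transcripts.

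The 5 most abundant members were Mrpl42, Mrps21, Mrpl30, Mrpl51 and Mrpl33. Mrpl42, a mitochondria-specific protein of the large subunit (chromosome 10, 95480805 to 95501940, GRCm38), was at 428, 365 and 364 TPM in homozygous replicates 1 to 3 and at 389, 380 and 524 TPM in WT replicates 1 to 3. WT replicate 3 was the highest library and the groups overlapped. Its log2 fold change was -0.15 (SE 0.17, limma adjusted p = 0.562), and it was -0.0003 without WT replicate 3. Mrps21, the counterpart of bacterial small subunit protein bS21 (chromosome 3, 95862634 to 95871519), was at 306, 276 and 278 TPM in homozygous and 315, 277 and 473 TPM in WT libraries. Here too WT replicate 3 was far above the other 5 libraries, which overlapped, and the log2 difference of -0.27 (SE 0.20, limma adjusted p = 0.396) became -0.05 without it.

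WT replicate 3 was also the highest of the 6 libraries for Mrpl30, Mrpl51 and Mrpl33. Mrpl30 was at 231, 218 and 221 TPM in homozygous and 211, 173 and 253 TPM in WT libraries. Mrpl51 was at 223, 203 and 203 TPM against 194, 195 and 276 TPM. Mrpl33 was at 199.7, 205 and 182 TPM against 185, 143 and 244 TPM. Each group of values overlapped, and the log2 fold changes were 0.09, -0.06 and 0.07.

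Of the large subunit, the members with the largest positive differences were Mrpl35 and Mrpl1. Mrpl35, the counterpart of bacterial bL35 (chromosome 6, 71812997 to 71826969, minus strand), was at 28.0, 25.04 and 25.8 TPM in homozygous and 15.3, 22.3 and 19.4 TPM in WT libraries. All homozygous libraries lay above all WT libraries, by 0.46 on the log2 scale (SE 0.16, limma adjusted p = 0.171). About 64.4% of its TPM was assigned to a 707-nt isoform annotated as a target of nonsense-mediated decay, which was at 19.0, 16.1 and 17.9 TPM against 7.87, 13.7 and 12.8 TPM. The 3721-nt coding isoform was at 8.31, 8.93 and 7.83 TPM against 7.43, 8.55 and 6.63 TPM, and these overlapped.

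Mrpl1, which forms the mobile L1 stalk beside the exit site of the ribosome (chromosome 5, 96209493 to 96266727), was at 14.6, 17.5 and 16.6 TPM in homozygous and 13.3, 14.5 and 7.74 TPM in WT libraries. The groups did not overlap, but WT replicate 3 was well below the other WT libraries. The log2 difference of 0.46 (SE 0.22, limma adjusted p = 0.236) was 0.20 without that library. Its 1550-nt isoform was at 1.31 TPM in WT replicate 3 and at 6.63 to 9.53 TPM in the others, whereas its 3431-nt isoform was at 5.81 to 7.97 TPM in all 6.

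The proteins of the flexible stalk that recruits translation factors showed small differences, none past the threshold. Mrpl12, the stalk protein, was at 116, 102 and 93.8 TPM in homozygous and 97.5, 103 and 134 TPM in WT libraries, with a log2 fold change of -0.09. Mrpl10, which anchors the stalk, was at 21.7, 25.03 and 23.7 TPM against 19.97, 22.8 and 18.0 TPM, with overlapping groups and a log2 fold change of 0.21. Mrpl11, at the stalk base, was at 19.2, 20.2 and 21.2 TPM against 18.2, 15.3 and 18.3 TPM, so its groups just separated, with a log2 fold change of 0.22 and a limma adjusted p of 0.307.

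Mrpl3, a core protein near the peptidyl transferase centre, was at 46.6, 42.9 and 41.5 TPM in homozygous and 38.7, 34.3 and 32.9 TPM in WT libraries. The groups did not overlap, and the log2 fold change was 0.30 (SE 0.12, limma adjusted p = 0.198). Mrpl44, an RNase III-like protein of the mitochondria-specific set, was at 24.1, 23.2 and 20.9 TPM against 22.3, 20.2 and 21.1 TPM, with a log2 fold change of 0.10. Mrpl36, the counterpart of bacterial bL36, was at 41.5, 32.9 and 33.2 TPM against 39.2, 33.5 and 43.2 TPM, with a log2 fold change of -0.10. Mrpl58, a peptidyl-tRNA hydrolase built into the large subunit, was at 56.3, 49.5 and 43.4 TPM against 48.3, 42.9 and 70.5 TPM, with a log2 fold change of -0.09. The groups of these last 3 genes overlapped, and WT replicate 3 was the highest library for Mrpl36 and Mrpl58.

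Mrps30 and Mrps18a carry small subunit symbols but sit in the large subunit. Mrps30 was at 30.2, 34.4 and 33.1 TPM in homozygous and 28.9, 26.2 and 25.3 TPM in WT libraries, without overlap, and its log2 fold change was 0.27 (limma adjusted p = 0.222). Mrps18a was at 84.0, 79.997 and 70.9 TPM against 74.5, 74.5 and 87.2 TPM, with a log2 fold change of -0.01. Its paralogs are Mrps18b and Mrps18c of the small subunit. Mrps18b was at 50.9, 47.1 and 55.2 TPM against 47.5, 45.9 and 47.1 TPM, and Mrps18c was at 68.4, 62.4 and 71.2 TPM against 58.5, 52.1 and 58.3 TPM. Of the 3 paralogs only Mrps18c had groups that did not overlap, with a log2 fold change of 0.25 (limma adjusted p = 0.233), and the differences between the paralogs were not tested.

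Mrpl23, which lines the exit of the nascent peptide tunnel, was at 13.5, 13.7 and 11.5 TPM in homozygous and 21.2, 9.50 and 16.6 TPM in WT libraries. Its log2 difference was -0.21 (SE 0.26, limma adjusted p = 0.603), and the groups overlapped. The processed pseudogene Mrpl23-ps1 is 100% identical to it over 540 nt and was assigned 115 to 206 TPM, with a mean of 151 TPM. Mrpl23 thus held 7.48% to 12.3% of the sum of both. Both together came to 157 ± 12.5 TPM in homozygous libraries and 173 ± 48.8 TPM in WT libraries (SD, n = 3 each). Which of the 2 loci the reads came from cannot be told from the deposited values. In all, 17 of the 78 genes had an annotated pseudogene transcript with at least 95% identity over at least 200 nt, 22 copies in total, of which 18 were in the table and 17 had a mean under 1 TPM.

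Of the small subunit, Mrps23 had the largest difference of all 78 genes. This mitochondria-specific protein is encoded on chromosome 11 (88204388 to 88211507, plus strand). Its isoforms summed to 89.9, 112 and 104 TPM in homozygous and 74.5, 73.7 and 65.6 TPM in WT libraries. The homozygous mean of 102 ± 11.0 TPM and the WT mean of 71.3 ± 4.90 TPM (SD, n = 3 each) came from groups that did not overlap. On the log2 scale the difference was 0.50 (95% interval 0.19 to 0.81), with a limma adjusted p of 0.168, and 0.45 without WT replicate 3.

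Much of that difference lay in 1 short isoform. Mrps23 has 10 rows in the table, in 5 pairs with identical values, and 5 of the rows have no transcript in GENCODE M21. The 332-nt isoform (ENSMUST00000107915.9, its pair summed) was at 12.99, 31.0 and 21.04 TPM in homozygous and 6.26, 9.95 and 2.79 TPM in WT libraries. It accounted for 15.3 TPM of the difference of means. The 1332-nt isoform, which leads the gene, was at 52.2, 51.7 and 47.8 TPM against 48.7, 42.0 and 43.4 TPM and overlapped. Without the 332-nt isoform the gene was at 76.9, 80.7 and 82.6 TPM against 68.2, 63.8 and 62.8 TPM, so the groups remained apart, by 0.30 on the log2 scale.

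**Figure D3:**
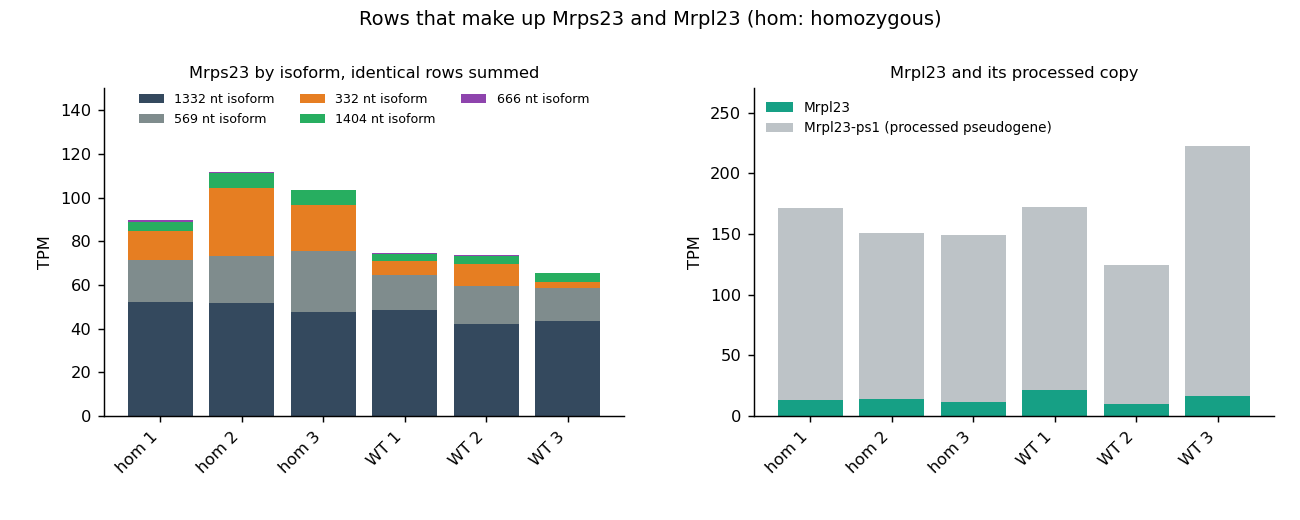
Left, TPM of Mrps23 in each library, stacked by isoform with identical rows summed; the 332-nt isoform (orange) is at 12.99 to 31.0 TPM in homozygous and 2.79 to 9.95 TPM in WT libraries. Right, TPM of Mrpl23 (green) stacked with its processed copy Mrpl23-ps1 (grey), which holds most of the sum in every library.

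Mrps22, a mitochondria-specific protein whose loss causes mitochondrial disease in people, was at 19.0, 18.5 and 20.1 TPM in homozygous and 14.1, 17.3 and 14.4 TPM in WT libraries. The groups did not overlap, and the log2 fold change was 0.32 (SE 0.14, limma adjusted p = 0.203). Mrps16, the counterpart of bacterial bS16, was at 96.2, 109.9 and 116 TPM against 96.8, 71.8 and 89.2 TPM, so that homozygous replicate 1 fell just under WT replicate 1. Its log2 fold change was 0.32 (limma adjusted p = 0.229). Mrps34, needed for stability of the small subunit rRNA, was at 74.1, 82.7 and 86.6 TPM against 64.9, 59.9 and 77.9 TPM, with overlapping groups and a log2 fold change of 0.27.

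Mrps12, at the decoding centre, was at 54.9, 46.2 and 53.6 TPM in homozygous and 51.2, 45.5 and 48.1 TPM in WT libraries, with a log2 fold change of 0.09. Mrps2, among the lowest members, was at 9.27, 10.2 and 10.8 TPM against 10.7, 9.62 and 8.34 TPM, with a log2 fold change of 0.08. Both pairs of groups overlapped.

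Mrps35 and Mrps25 stood at the other end of the range. Mrps35 (chromosome 6, 147042764 to 147073991) was at 26.0, 21.3 and 22.8 TPM in homozygous and 26.0, 24.1 and 41.4 TPM in WT libraries. WT replicate 3 was again the library that stood out, and the log2 difference of -0.34 (SE 0.21, limma adjusted p = 0.318) was -0.10 without it. About 70.1% of the TPM of Mrps35 was assigned to a 467-nt processed transcript without an annotated reading frame, at 17.8, 13.6 and 15.7 TPM against 18.2, 18.1 and 29.96 TPM, so that this isoform's groups did not overlap. Mrps25 was at 26.97, 21.5 and 24.4 TPM against 27.7, 25.4 and 28.5 TPM, with a log2 fold change of -0.16 (limma adjusted p = 0.440). Mrps36, an adaptor subunit of the 2-oxoglutarate dehydrogenase complex rather than a ribosomal protein despite its symbol, was at 113, 100.5 and 103 TPM against 100.1, 97.9 and 128 TPM, with a log2 fold change of -0.03.

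The subunits and the evolutionary classes had medians close to each other. The median log2 fold change was 0.11 for Mrpl and 0.11 for Mrps symbols. It was 0.11 for the 29 large subunit proteins with bacterial counterparts, 0.11 for the 22 mitochondria-specific ones, 0.09 for the 16 small subunit proteins with bacterial counterparts and 0.15 for the 10 mitochondria-specific ones. All homozygous libraries lay above all WT libraries for 9, 6, 1 and 3 genes of these classes, or 31%, 27.3%, 6.25% and 30%, against 34.7% of all tested genes. The small subunit proteins with bacterial counterparts had the lowest share, and no test was made between classes. The summed TPM of Mrpl genes was 1.87 to 1.96 times that of Mrps genes in the 6 libraries.

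Summed over the 78 genes, TPM overlapped between genotypes and varied between libraries. The sum was 5342, 5058 and 5048 TPM in homozygous and 4855, 4484 and 5701 TPM in WT libraries, or 5149 ± 167 against 5014 ± 624 TPM (SD, n = 3 each). The difference of 136 TPM rested on single libraries: without WT replicate 3 it was 480 TPM, with all homozygous libraries above the remaining WT pair, and without WT replicate 2 it was -129 TPM. The library with the highest sum, WT replicate 3, had the lowest share of mitochondrially encoded mRNAs, and that with the lowest sum, WT replicate 2, had the highest. That share was 20.9%, 27.3% and 25.3% of TPM in homozygous and 26.2%, 33.9% and 14.3% in WT libraries. Expressed per 1000000 of the TPM that remained without those mRNAs, the sum was 6756, 6962 and 6756 in homozygous and 6583, 6786 and 6650 in WT libraries. Its coefficient of variation over the 6 libraries was then 1.92%, against 8.17% for the sum as deposited and 26.8% for the mitochondrially encoded share. The homozygous mean of 6825 ± 119 and the WT mean of 6673 ± 104 (SD, n = 3 each) overlapped in their libraries, and did not without WT replicate 2.

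**Figure D4:**
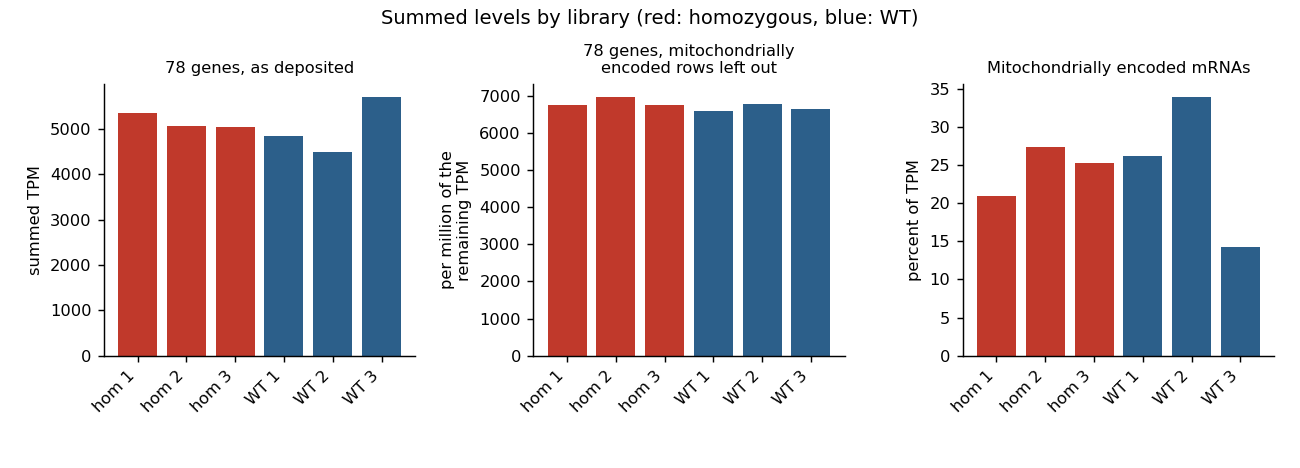
Bars give 1 value per library: the summed TPM of the 78 genes (left), the same sum per 1000000 of the TPM without mitochondrially encoded mRNAs (middle) and the mitochondrially encoded share of TPM (right). The left panel runs from 4484 to 5701, the middle one only from 6583 to 6962.

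Individual genes did not all follow the sum. WT replicate 3 was the highest library for 25 of the 78 genes and the lowest for 11, whereas WT replicate 2 was the lowest for 41 and the highest for 1. Transcript length, taken as the mean over a gene's isoforms weighted by TPM, sorted these genes. Among the 39 shorter genes (419 to 999 nt), WT replicate 3 was highest for 21 and lowest for 3. Among the 39 longer genes (1013 to 3319 nt), it was highest for 4 and lowest for 8.

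The genotype difference varied with length in the same manner. The shorter 39 had a median log2 fold change of 0.08, with 23 higher in homozygous muscle and 6 (15.4%) whose groups did not overlap. This compares with 11.9% of tested genes below the median length of the 78 (1006 nt). The longer 39 had a median of 0.15, with 35 higher and 13 (33.3%) not overlapping, against 38.3% of longer tested genes. Transcript lengths were alike for the shorter 39 and their comparison genes, with medians of 754 and 733 nt. The longer 39 had a median of 1422 nt, against 2540 nt for the longer tested genes. That second comparison is therefore not one of like length. Spearman's rho between length and log2 fold change was 0.43 over the 78 genes and 0.31 over the 11077 tested genes with a length. Both are descriptions over genes that share the same 6 libraries. Without WT replicate 3 the rho over the 78 genes was 0.22. The 78 genes are short, with a median length of 1006 nt against 2264 nt for all tested genes. Tested genes below 1006 nt had a median log2 fold change of 0.12, and longer ones 0.28. With a length trend removed from each library, the median of the 78 lay 0.05 below that of all genes. In that fit 58 of the 78 genes still lay below the median of all genes, and 62 had lower homozygous means.

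**Figure D5:**
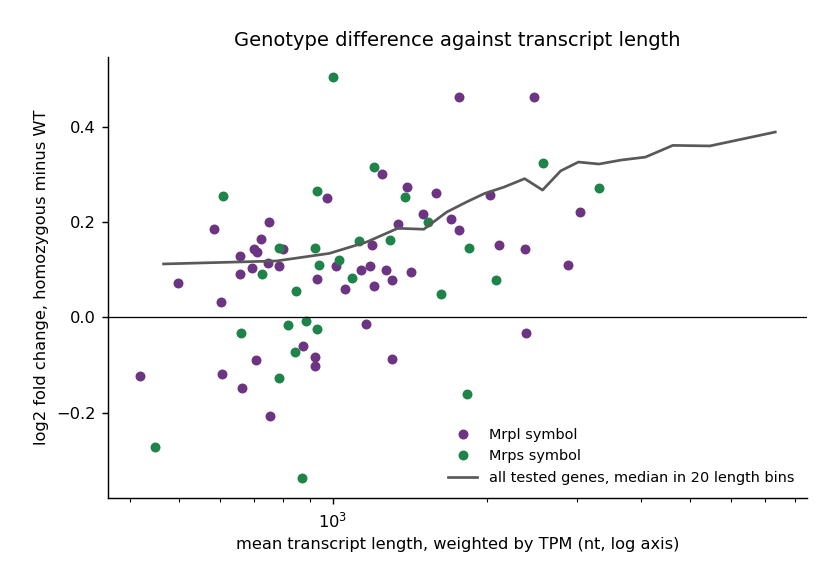
Log2 fold change, homozygous minus WT, against transcript length on a log axis for the 78 genes (points). The line joins the median of all tested genes in 20 bins of length; it runs from 0.11 in the shortest bin to 0.39 in the longest, and the points scatter around its lower left part.

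As with the gene sums, no isoform row of the 78 genes passed the threshold. The 78 genes had 323 rows, of which 208 passed the filter, and limma called 0 of them at an adjusted p under 0.05, against 0.0425% of all 21165 isoforms tested. No adjusted p was below 0.263. Without adjustment, 13 with higher and 1 with lower values in homozygous muscle had a p under 0.05, against 14.2% and 1.52% of all isoforms. Both rows of an identical pair, as in Mrps23, are counted in this paragraph where they passed the filter. The groups did not overlap for 41 of the 208 with homozygous above and 6 of the 208 with homozygous below, against 25.6% and 2.11%. The share above was smaller than that of all isoforms. The share below was only slightly larger, and a count of 6 so near the background is not read as a difference.

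The smallest p belonged to a 434-nt processed transcript of Mrpl2 (ENSMUST00000156464.1), at 2.50, 2.28 and 2.87 TPM in homozygous and 1.24, 0 and 0 TPM in WT libraries. It held 1.50% of the TPM of Mrpl2. The 332-nt isoform of Mrps23 and its identical row came next. Protein-coding isoforms numbered 127 of the 208 and had a median log2 fold change of 0.11, and the 77 annotated as retained introns, processed transcripts or decay targets had 0.12. Of the 65 genes with several rows, the leading isoform held over 80% of the TPM in 36 and under 50% in 10.

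The 78 genes lie on 17 chromosomes, with 11 of them on chromosome 11 (GENCODE M21 on GRCm38). For 33 (42.3%) another protein-coding gene starts head to head with them on the opposite strand within 1000 bp, overlapping starts included, against 17.3% of 10443 protein-coding tested genes. These 33 fall into 32 pairs. In 1 pair both genes are members: Mrpl46 runs leftwards and Mrps11 rightwards on chromosome 7, from RefSeq start sites 42 bases apart (78783089 and 78783131), and their GENCODE models, 78775236 to 78783531 and 78783119 to 78792989, overlap. Mrpl46 was at 23.4, 22.2 and 15.8 TPM in homozygous and 17.0, 19.8 and 19.7 TPM in WT libraries. Mrps11 was at 23.0, 20.3 and 23.3 TPM against 18.9, 16.1 and 27.9 TPM. Both overlapped between genotypes, and the libraries were not in the same order. The libraries are stranded per the labels, but whether the quantification used strand is not given, so reads from the overlap may be shared.

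Of the other pairs, 3 are described, chosen after their values were seen; the functions of the partners were not compared as a group. Mrps12 is paired with Sars2, the mitochondrial seryl-tRNA synthetase, at 172 bp. Sars2 was at 7.42, 7.15 and 5.49 TPM in homozygous and 6.16, 7.11 and 8.46 TPM in WT libraries, which overlapped like Mrps12. Mrpl47 is paired with Ndufb5, a subunit of respiratory complex I, at -615 bp, where the minus sign means that the starts overlap. Reads from that overlap may be shared here too. Ndufb5 was at 679.7, 688.6 and 647 TPM against 555, 523 and 571 TPM, without overlap (log2 fold change 0.29, limma adjusted p = 0.212), whereas Mrpl47 was at 17.5, 20.8 and 14.8 TPM against 15.4, 13.01 and 22.5 TPM. Mrpl32 is paired with Psma2, a proteasome subunit, at 75 bp. Psma2 was at 122, 144 and 170.2 TPM against 119, 107 and 109 TPM, without overlap, and Mrpl32 was at 48.9, 52.0 and 53.1 TPM against 43.9, 54.6 and 42.8 TPM. In the last 2 pairs the partner's groups separated and the member's did not, as in further pairs such as Mrps34 with Eme2. The reverse held for Mrpl40 with Hira, Mrpl43 with Twnk, Mrpl49 with Fau, Mrpl9 with Oaz3 and Mrps27 with Ptcd2. For Mrps18c with Helq and Mrpl2 with Klc4 both separated. Over all tested genes 34.7% separated with homozygous above, and the difference between partners was not tested.

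Promoter sequences from RefSeq (GRCm38.p6, 250 bases before to 50 after the start) were found for 69 of the 78 genes, as 75 promoters. Letters of 3 factors known from promoters of nuclear genes for mitochondrial proteins were searched on both strands: NRF1 (its palindromic site, as in capitals for Mrpl32 below, with any base at the sixth position), the ETS family (CCGGAAG), which includes GABPA, and YY1 (AAGATGGC). The NRF1 letters were in 17.3% of the 75 promoters, against 10.7% of the 10668 promoters of tested genes and 4.60% of all 32851 promoters. The ETS letters were in 34.7%, against 18.0% and 8.86%. The YY1 letters were in 16.0%, against 4.73% and 2.75%. At least 1 of the 3 was in 43 of the 75 promoters (57.3%), against 29.6% for tested genes. No matches of different factors overlapped in a promoter of the 78 genes. The YY1 letters contain ATG, and in 8 promoters (10.7%, against 2.24% for tested genes) they lay on the gene's strand after the start. The letters of the TATA box (TATAAA) were in 6.67%, against 7.09% and 13.6%. The full glucocorticoid response element searched (both inverted arms with their spacer) was in 0 of the 75 and in 0.0094% of promoters of tested genes, which says only that these letters are not in these windows.

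The windows below run from 100 bases before to 29 after the RefSeq start, on the gene's strand, 5′ to 3′, with matched letters in capitals. They show the shared start region of the divergent pair (Mrps11), promoters with 2 kinds of match or a palindromic match (Mrps18a, Mrpl32, Mrps21), and members at the upper (Mrps23, Mrps22, Mrps16) and lower (Mrps25) ends of the genotype difference. Mrps11 is at chr7:78783031-78783160 (plus strand), Mrps18a at chr17:46110904-46111033 (plus), Mrpl32 at chr13:14613008-14613137 (minus), Mrps21 at chr3:95871485-95871614 (minus), Mrps23 at chr11:88204288-88204417 (plus), Mrps22 at chr9:98601650-98601779 (minus), Mrps16 at chr14:20393461-20393590 (minus) and Mrps25 at chr6:92183994-92184123 (minus), all GRCm38.p6.
Mrps11: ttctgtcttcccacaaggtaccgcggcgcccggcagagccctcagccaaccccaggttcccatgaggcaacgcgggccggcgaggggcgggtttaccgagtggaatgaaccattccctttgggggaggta
Mrps18a: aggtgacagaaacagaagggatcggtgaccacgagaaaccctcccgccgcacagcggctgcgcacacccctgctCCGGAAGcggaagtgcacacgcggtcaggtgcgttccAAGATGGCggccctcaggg
Mrpl32: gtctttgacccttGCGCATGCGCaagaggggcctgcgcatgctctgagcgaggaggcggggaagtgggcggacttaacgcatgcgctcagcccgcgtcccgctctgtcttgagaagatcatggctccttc
Mrps21: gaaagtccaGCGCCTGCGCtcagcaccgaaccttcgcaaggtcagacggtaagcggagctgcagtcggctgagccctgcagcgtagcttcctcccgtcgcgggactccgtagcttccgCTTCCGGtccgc
Mrps23: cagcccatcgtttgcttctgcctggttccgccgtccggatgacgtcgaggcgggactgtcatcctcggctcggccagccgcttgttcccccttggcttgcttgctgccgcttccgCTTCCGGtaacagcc
Mrps22: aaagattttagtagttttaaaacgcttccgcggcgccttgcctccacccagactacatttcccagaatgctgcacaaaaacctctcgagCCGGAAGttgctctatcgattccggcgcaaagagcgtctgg
Mrps16: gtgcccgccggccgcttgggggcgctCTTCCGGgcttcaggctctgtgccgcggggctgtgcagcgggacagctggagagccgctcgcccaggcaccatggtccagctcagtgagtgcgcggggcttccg
Mrps25: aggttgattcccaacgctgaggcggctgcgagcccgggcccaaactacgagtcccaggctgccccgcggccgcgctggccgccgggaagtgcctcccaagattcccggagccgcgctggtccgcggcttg
Mrps18a holds ETS letters 26 bases before its start and YY1 letters from 12 bases after it. Mrpl32 holds an NRF1 match that reads the same on both strands. Mrps21 holds NRF1 letters on the opposite strand and ETS letters after its start, and Mrps23 and Mrps16 hold ETS letters on the opposite strand. The Mrps11 and Mrps25 windows hold no match. Of the 5 members with the highest log2 fold changes, Mrps23, Mrps22 and 1 of 2 promoters of Mrps16 hold ETS letters, Mrpl35 holds YY1 letters only and Mrpl1 holds no match. Of the 5 with the lowest, Mrps21 holds NRF1 and ETS letters, Mrpl42 holds YY1 letters only, Mrpl23 and Mrps25 hold no match, and Mrps35 was not matched to a promoter. Matches and their absence thus occur at both ends of the genotype difference.

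The rest of the mitochondrial translation machinery was examined with lists of genes by function. Limma called 0 genes of these lists at an adjusted p under 0.05. Without adjustment, 2 assembly factors, 2 translation factors, 3 aminoacyl-tRNA synthetases and 1 gene for mitochondrial transcription had a p under 0.05, all with higher values in homozygous muscle. These are 8 of 63 genes (12.7%), a smaller share than the 23.7% of all tested genes. Of 5 ribosomal proteins with other symbols (Aurkaip1, Chchd1, Dap3, Gadd45gip1 and Ptcd3), 3 had higher and 2 lower homozygous means, with a median log2 fold change of 0.02 and no separated groups. Chchd1, the most abundant, was at 197, 177 and 179 TPM in homozygous and 192, 163 and 202 TPM in WT libraries. Dap3, a GTP-binding protein of the small subunit, had the highest log2 fold change of the 5, at 0.15, and Ptcd3 the lowest, at -0.009.

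Of 23 ribosome assembly factors, 16 had higher and 7 lower homozygous means, with a median of 0.15. Nsun4, an rRNA methyltransferase, had the highest log2 fold change at 0.53, with 13.3, 10.6 and 12.8 TPM in homozygous and 9.29, 7.71 and 7.53 TPM in WT libraries. Fastkd2, an RNA-binding protein needed for large subunit assembly, had the lowest at -0.32, with 16.2, 11.9 and 14.1 TPM against 18.5, 13.97 and 21.2 TPM. Malsu1, which joins the assembling large subunit, was the most abundant, at 59.8, 70.8 and 79.6 TPM against 68.0, 56.6 and 56.2 TPM. Of these 3 genes only Nsun4 had groups that did not overlap (limma adjusted p = 0.168).

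Of 15 translation factors and activators, 13 had higher homozygous means. The groups did not overlap for 7 (46.7%, against 34.7% of all tested genes), all with homozygous above. The same share was lower in the other lists: 21.7% of assembly factors, 20% of aminoacyl-tRNA synthetases and 20% of genes for mitochondrial transcription. Over these 4 lists together it was 17 of 63 genes (27%), below that of all tested genes. The median log2 fold change was 0.26, close to that of all genes. Taco1, an activator of translation of the cytochrome c oxidase subunit Cox1, had the highest at 0.50, with 23.2, 21.8 and 21.9 TPM in homozygous and 18.3, 21.3 and 9.41 TPM in WT libraries. WT replicate 3 was again the lowest. Mtrf1l, a release factor, had the lowest at -0.15, and Slirp, which binds mitochondrial mRNAs together with Lrpprc, was the most abundant, at 90.2, 91.2 and 88.8 TPM against 79.0, 69.7 and 100.2 TPM.

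Of 20 mitochondrial aminoacyl-tRNA synthetases and amidotransferase subunits, 17 had higher homozygous means, with a median of 0.18. Nars2, the asparaginyl enzyme, had the highest log2 fold change at 0.66, with 4.69, 3.59 and 4.62 TPM in homozygous and 2.01, 3.72 and 1.63 TPM in WT libraries. Lars2, the leucyl enzyme, was both the most abundant and the lowest, at -1.45 (SE 1.60, limma adjusted p = 0.561). It was at 60.3, 481 and 969.8 TPM in homozygous and 2528, 2095 and 109 TPM in WT libraries, a range that crossed the groups. Nearly all of it was assigned to a 3756-nt isoform annotated as a decay target, at 48.9 to 2518 TPM, whereas the 3894-nt coding isoform was at 7.81 to 15.3 TPM in all 6 libraries.

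Of the 5 tested genes for transcription of mitochondrial DNA, 4 had higher homozygous means. Tfam, which packages mitochondrial DNA, was at 31.7, 30.4 and 37.2 TPM in homozygous and 27.6, 27.5 and 18.5 TPM in WT libraries, without overlap, with a log2 fold change of 0.44 (limma adjusted p = 0.200). Polrmt, the RNA polymerase, had the lowest at -0.11, and Tfb2m, an initiation factor, was the most abundant, at 28.3, 31.4 and 38.4 TPM against 38.6, 31.7 and 16.7 TPM. Of the 13 mitochondrially encoded mRNAs that these ribosomes translate, 8 had higher and 5 lower homozygous means, with a median log2 fold change of 0.05 and no separated groups. They ranged from -0.38 for mt-Nd3 to 0.43 for mt-Nd4l, and mt-Co1, the most abundant, was at 42870, 42069 and 37497 TPM in homozygous and 40756, 41034 and 19582 TPM in WT libraries.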

How the data were processed

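The authors deposited 1 table of TPM with a row for each transcript and a column for each library, per the file headers. Poly-A selected, stranded libraries were made per the labels. The submitters' processing notes name FastQC, Trimmomatic, HISAT2, kallisto and the build mm10, without roles, with annotation and filters not given in the sources used here. TPM carries no depth, so depth is unknown and no counting interval is given.

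TPM was summed per symbol and transformed to log2(TPM + 1), which understates differences of low genes. Genes and isoform rows at 1 TPM or more in 3 libraries or more were tested with limma 3.58.1 (R 4.3.3; trend, robust, genotype only), with Benjamini-Hochberg adjustment over all tested features and a threshold of 0.05. The scripts were tested on simulated data. Positions and lengths are from GENCODE M21, promoters from RefSeq; pseudogene copies were found with blastn 2.17.0. Replicate numbers were not taken as pairs. Same-number correlations of deviations were -0.07, 0.06 and -0.01, and those of other pairs ran from -0.14 to 0.13. With 3 libraries per group these values cannot decide whether the libraries were paired.

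Members and lists were chosen with earlier results of these data known. Named members are the 5 highest and 5 lowest log2 fold changes, the 5 most abundant and 16 chosen by function, and, of each list, the highest, the lowest and the most abundant gene. Beyond the rule, Mrpl46, Mrps11, Mrpl47, Mrpl32 and their partners were described after their values were seen.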

Additional observations from a re-analysis of the deposited data

How the results depend on the processing

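No member gene passed the threshold in any alternative but array weights, which called 2 (Mrpl35 and Mrps23) beside 810 of all genes (7.3%), and no member isoform passed in any alternative fitted to the isoforms. Genes at an unadjusted p under 0.05 with homozygous higher numbered 4, between 2 (without homozygous replicate 1, 2 or 3) and 7 (without WT replicate 3) with 1 library left out; with homozygous lower they numbered 0, but 7 with quantile normalization, 5 with median centring, 4 with the length trend removed and 1 without WT replicate 2. The fit with the replicate block gave 0 members past the threshold, 2 at an unadjusted p under 0.05, and changed no call. The median of the members minus that of all genes was -0.156, with -0.00791 without the filter and 0.0231 with the slow fibre level as covariate, and -0.231 to -0.055 with 1 library left out (highest without WT replicate 3); the cause was not tested. Of 476 values of the 28 named members relative to the median of all genes under alternatives, 40 changed sign, and 12 members had none that did. With the slow fibre covariate these were Mrpl1 (-0.12), Mrpl11 (0.095), Mrpl30 (0.12), Mrpl33 (0.12), Mrpl51 (0.0502), Mrpl58 (0.0448), Mrps12 (0.00798), Mrps18b (0.0239), Mrps18c (0.18), Mrps30 (-0.00362) and Mrps36 (0.0224). Without the filter they were Mrpl10 (0.0900), Mrpl11 (0.10), Mrps18b (0.00222) and Mrps18c (0.14). With a pseudocount of 0.1 they were Mrpl3 (-0.0121), Mrps30 (-0.0403) and Mrps34 (-0.0514). With array weights they were Mrpl3 (-0.0158) and Mrps18c (0.00534), and with quantile normalization Mrps18c (0.0245). With the length trend removed they were Mrps18c (0.12) and Mrps30 (-0.0429), and with mitochondrially encoded transcripts left out Mrps30 (-0.00037) and Mrps34 (-0.00773). With 1 library left out, the relative value ranged from -0.159 to 0.0614 for Mrpl11, -0.0319 to 0.0704 for Mrpl3, -0.349 to 0.0243 for Mrpl30, -0.416 to 0.0656 for Mrpl33, -0.0974 to 0.156 for Mrps16, -0.0993 to 0.0795 for Mrps18c, -0.0356 to 0.104 for Mrps22, -0.0427 to 0.0377 for Mrps30 and -0.115 to 0.170 for Mrps34. Summing only isoform rows present in GENCODE M21, or 1 of each set of identical rows, both chosen after seeing the data, left the median difference at -0.155. Depth is unknown, so low isoforms have no stated precision.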
